A study of Homo sapiens with 10 samples.

Results

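The genes described here are the keratins, the plakins and plakophilins that tie keratin filaments to cell junctions, and 4 other filament genes, in the human retinal pigment epithelial cell line ARPE-19. A row of the read count table was included when its symbol was KRT with a number and at most 1 letter (A to C), PKP1 to PKP4, PPL, EVPL, DSP, PLEC, DST, JUP, VIM, NES, LMNA or LMNB2. The rule found 69 of 22626 rows: 55 keratins, 5 plakins, 4 plakophilins, plakoglobin (JUP) and the filament genes VIM, NES, LMNA and LMNB2. These families were chosen by their fold changes between HG and control in an earlier analysis of the same counts, KRT13 among them. The fold changes and calls given here for the members therefore describe these libraries and are no independent test. RNA-seq was run on 10 ARPE-19 libraries, 5 control libraries from cells kept for 48 h in medium with 32 mM mannitol beside D-glucose at 5.5 mM, and 5 high-glucose (HG) libraries from cells kept for 48 h with D-glucose at 37.5 mM. The labels name no mannitol for the HG medium. All libraries came from this 1 established line, and nothing in the labels says whether libraries of a group came from separate cultures, so the p-values measure only the spread between these libraries, which may be technical. Control libraries are numbered as their labels give them, and HG libraries by their table column (HG_1 to HG_5), since the columns could not be matched to the lettered HG sample titles.

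Keratins are the intermediate filament proteins of epithelial cells. A filament is built from pairs of 1 type I (acidic) and 1 type II (basic) keratin, and KRT8 with KRT18, together with KRT7 and KRT19, are typical of simple, single-layered epithelia, while KRT5 with KRT14, KRT1 with KRT10 and KRT4 with KRT13 are pairs of layered epithelia, and a further group builds hair and nail. Plakins and the armadillo proteins plakoglobin and the plakophilins link filaments to desmosomes and hemidesmosomes, the junctions that hold epithelial cells to each other and to the matrix. Retinal pigment epithelium is a single-layered epithelium, and in culture its cells can also carry vimentin, the filament protein of mesenchymal cells.

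The total count was 33039260 to 45864176 in the control libraries and 32448991 to 44400714 in the HG libraries, so that 3 counts, the limit a count of 0 allows, stood for 0.0669 to 0.0912 CPM (counts scaled to the TMM-adjusted library size). Control 2 and HG_1 stood apart from the other 8 libraries: their counts rose with the GC content of the genes by 0.17 and 0.188 log2 units per 10 points of GC. The slope was -0.0439 to -0.00519 in the other control libraries and -0.0916 to -0.0259 in the other HG libraries. HG_2, HG_4 and HG_5 (-0.0779, -0.0916 and -0.0868) thus lay below every control library. Control 2 and HG_1 were each the highest library of their group in CPM for KRT7, KRT8 and KRT18. Of the markers of retinal pigment epithelium, OTX2 (33.93 in control and 31.57 in HG, in FPKM, the deposited unit scaled to transcript length and library size), MITF (11.35 and 10.02) and RLBP1 (6.471 and 5.264) were present, whereas SERPINF1 (0.5204 and 0.486) was low, RPE65 had 0 to 6 counts, TYR had 4 to 34 counts in control and 0 to 4 in HG, and TTR was listed at 0 in every library. PMEL, a pigment granule protein, was called lower in HG, at 3.593 ± 0.4257 CPM in control and 2.188 ± 0.354 in HG (SD, n = 5; log2 fold change -0.72, edgeR adjusted p = 0.00854), and kept the call in 21 of 22 alternatives. BEST1, a chloride channel, had 24 to 18223 counts in control and 44 to 300 in HG, with overlapping groups. It was not called (log2 fold change -4.97, SE 1.64, edgeR adjusted p = 0.067), and both call and fold change depended on the fit: over 22 alternatives the log2 fold change ran from -5.49 to -1.85 and the adjusted p from 0.00416 (DESeq2) to 0.604 (edgeR with a block), with 6 calls. Markers of leukocytes (PTPRC, CD3E), endothelium (PECAM1, CDH5) and epithelium with E-cadherin (EPCAM, CDH1) summed to 0 to 0.1519 FPKM in control and 0.008676 to 0.06467 FPKM in HG, with CD3E and CDH5 at 0.

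Which keratins these cells expressed was read from the FPKM values, which are per length. FPKM did not follow CPM alike in every library for every gene. DST, for example, had 28.31 FPKM at 263.7 CPM in control 3 and 10.42 FPKM at 260.7 CPM in control 4. Levels compared between genes are therefore approximate. With a mean of at least 1 FPKM over the 10 libraries taken as expressed, 11 of 55 keratins were expressed. Another 6 were kept by the count filter at a lower mean, 10 had a few counts, and 28 were listed at 0 in every library. KRT7, a type II keratin of simple and glandular epithelia, was the highest at 1493.9 FPKM over all libraries. It was followed by the simple epithelial pair KRT8 (782.7 FPKM) and KRT18 (560.8 FPKM), and then by the type II keratin KRT80 (118.8 FPKM). This order of 4 held in every library. Next was KRT10, a type I keratin of the upper layers of skin, at 10.67 FPKM, and KRT13, a type I keratin of moist layered epithelia such as the oesophagus, at 3.914 FPKM. KRT10 was above KRT13 in every library but control 1, where KRT13 was at 9.796 and KRT10 at 9.468 FPKM. The other 5 expressed keratins were keratins of hair and nail, at 3.173 FPKM for KRT34, 1.938 for KRT33B, 1.559 for KRT86, 1.458 for KRT32 and 1.097 for KRT31. Over the 10 libraries, the ranges of neighbours among these 5 overlapped. Within a group, 2 pairs of neighbours were apart. In HG, KRT34 (3.106 to 5.136 FPKM) lay above KRT33B (0.9574 to 2.937). In control, KRT86 (1.954 to 2.49 FPKM) lay above KRT32 (1.306 to 1.663). Each of these 2 pairs overlapped in the other group. KRT33B with KRT86 and KRT32 with KRT31 overlapped in both groups, so their order does not go beyond the spread. KRT13 was above KRT34 in every control library and below it in every HG library. KRT31 lay just inside the limit of 1 FPKM and KRT81, at 0.8753 FPKM, just outside it. The limit was set on the mean of both groups together, and 3 hair keratins crossed it between groups. The mean of KRT31 was 0.8449 FPKM in control and 1.348 in HG. That of KRT81 was 1.241 and 0.5097, and that of KRT86 was 2.191 and 0.926.

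The keratins at a lower level were KRT81 with 33 to 138 counts per library, KRT15 with 9 to 46, KRT36 with 0 to 33, KRT23 with 7 to 25, KRT38 with 4 to 28 and KRT19 with 0 to 22. KRT19, a partner of KRT7 and KRT8 in many simple epithelia, was thus near the limit of detection, with no count in control 1 and in HG_3. KRT37 had 4 to 13 counts, KRT16 had 0 to 13, KRT17 0 to 7, KRT35 0 to 5, KRT3 and KRT78 0 to 3, KRT40 and KRT83 0 to 2, and KRT12 and KRT39 0 to 1. The basal layer pair KRT5 and KRT14 was listed at 0 in every library. So were KRT1 and KRT2 of the outer skin layers, KRT4, which pairs with KRT13, KRT6A, KRT6B and KRT6C of stressed skin, KRT20 of gut epithelium, KRT9 of palm and sole skin, and KRT33A, KRT82, KRT84 and KRT85 of hair. The remaining keratins at 0 were KRT24 to KRT28, KRT71 to KRT77, KRT79 and KRT222. Among the other families, envoplakin (EVPL), the usual partner of PPL, and PKP1, the plakophilin of layered skin, were also at 0 in all libraries.

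**Figure D1:**
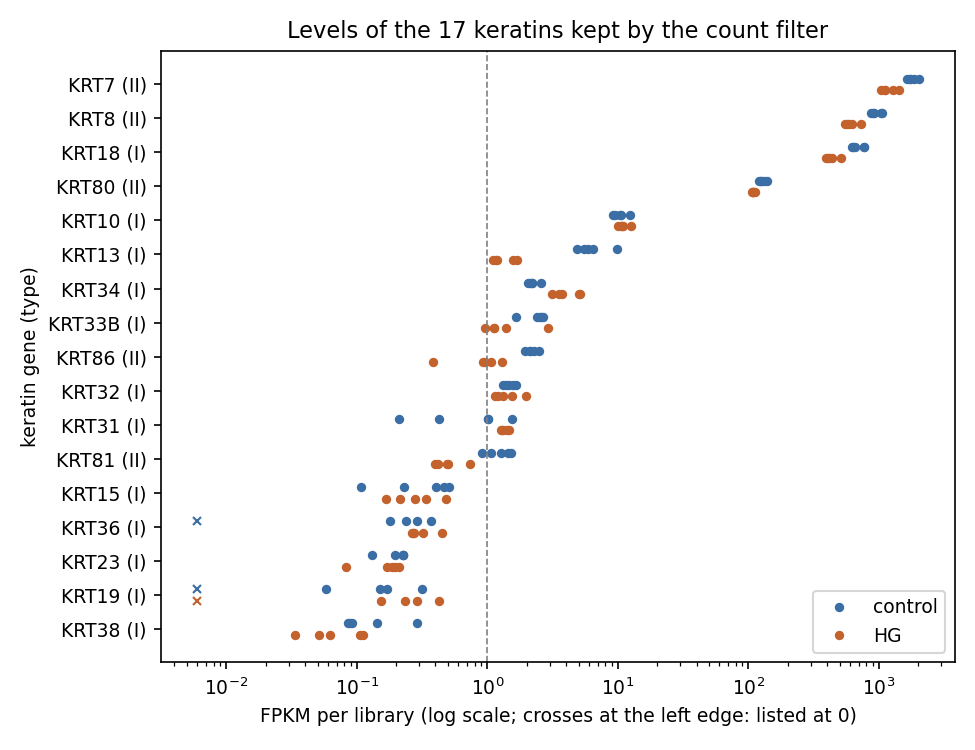
FPKM in each library (horizontal log axis; 1 dot per library, 5 control and 5 HG) of the 17 keratins kept by the count filter, with the type in brackets, the limit of 1 FPKM as a dashed line and values listed at 0 as crosses at the left edge. KRT7, KRT8, KRT18 and KRT80 stand apart from all others, and KRT13 and KRT34 are the type I keratins of the middle range whose groups do not overlap.

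The 4 keratins KRT7, KRT8, KRT18 and KRT80 held 99.21% ± 0.03076 (SD, n = 5) of the summed keratin FPKM in control and 99.01% ± 0.03186 in HG. KRT7 alone held 49.9% and 50.35%, with overlapping groups. KRT8 held 26.33% to 26.95% in the control libraries and 25.13% to 26.2% in the HG libraries, and KRT18 18.58% to 20.16% and 17.77% to 18.48%, neither with overlap. KRT80 held 3.14% to 3.817% in the control libraries and 3.871% to 5.017% in the HG libraries, again with no overlap. The shares of KRT8 and KRT18 were thus lower and that of KRT80 higher in every HG library, by small amounts. Summed type II keratins were at 2879.1 ± 229.7 FPKM in control and 1916.4 ± 229.1 in HG, and summed type I keratins at 714.8 ± 75.18 and 453.8 ± 52.2. The ratio of type II to type I was 4.038 ± 0.151 and 4.222 ± 0.08448, so that type II RNA was in excess in every library. The ratio of KRT8 to KRT18 was nearer to 1, at 1.385 ± 0.03275 and 1.415 ± 0.008515. Summed keratin FPKM was 1.301 ± 0.09916 times that of VIM in control and 0.7888 ± 0.07988 times in HG. The lowest control library (1.207) lay above the highest HG library (0.8817). Keratins took 0.6645% of all counts in control and 0.4475% in HG, and VIM 0.5624% and 0.6125%. These sums were not tested, since their members were chosen by the contrast.

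**Figure D2:**
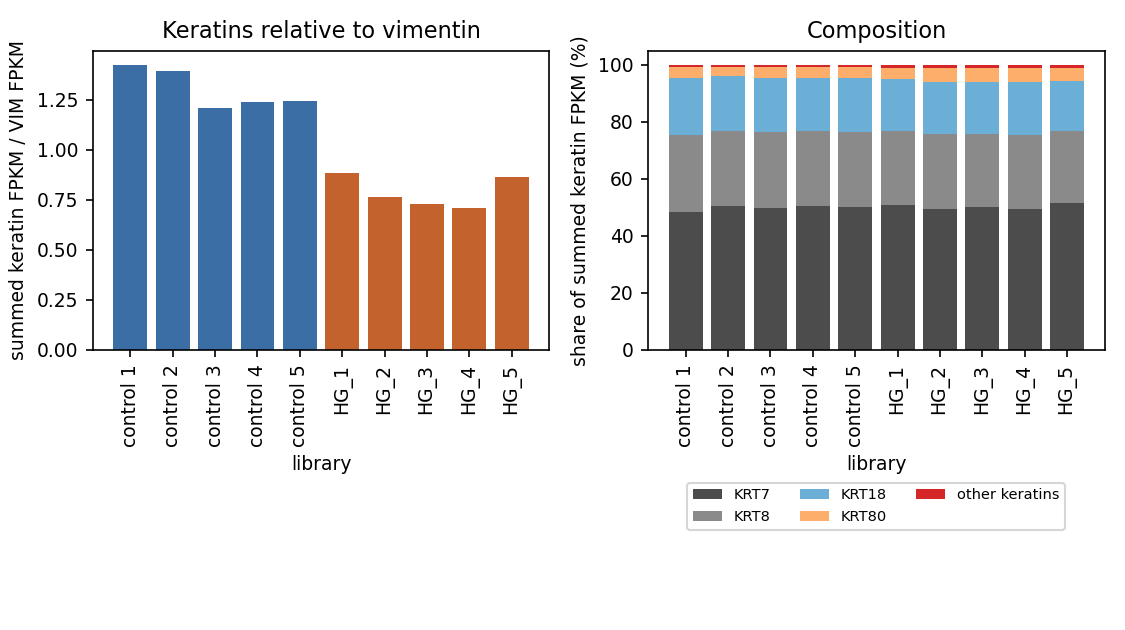
Left, summed keratin FPKM divided by VIM FPKM in each library (bars from 0; blue control, orange HG); right, the share of each of 4 keratins and of all others in the summed keratin FPKM of each library, in percent. The ratio to VIM is 1.207 to 1.423 in the control libraries and 0.706 to 0.8817 in the HG libraries, while KRT7 holds 48.42% to 51.58% of the keratin sum throughout.

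HG was compared with control in a fit over all rows, with a gene called at an adjusted p under 0.05 by the edgeR quasi-likelihood test with Benjamini-Hochberg adjustment. Of the 69 members, 29 passed the filter on low counts and were tested, 12 were called lower in HG, 1 higher and 16 were not called. Over all 14936 rows tested, 7.80% were called lower and 7.62% higher. The groups did not overlap for 13 of the 29 members, 12 lower and 1 higher, against 13.6% of all rows in either direction. The median log2 fold change was -0.231 over the tested members and 0.0013 over all rows. By family, 7 of the 17 tested keratins were called lower and 1 higher, 2 of 4 plakins lower, none of 3 plakophilins, JUP lower, and 2 of 4 other filament genes lower. All 5 tested type II keratins were called lower, and of the 12 type I keratins 2 were called lower and 1 higher. In bulk RNA, fewer cells that carry a transcript and less of it per cell cannot be told apart.

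**Figure D3:**
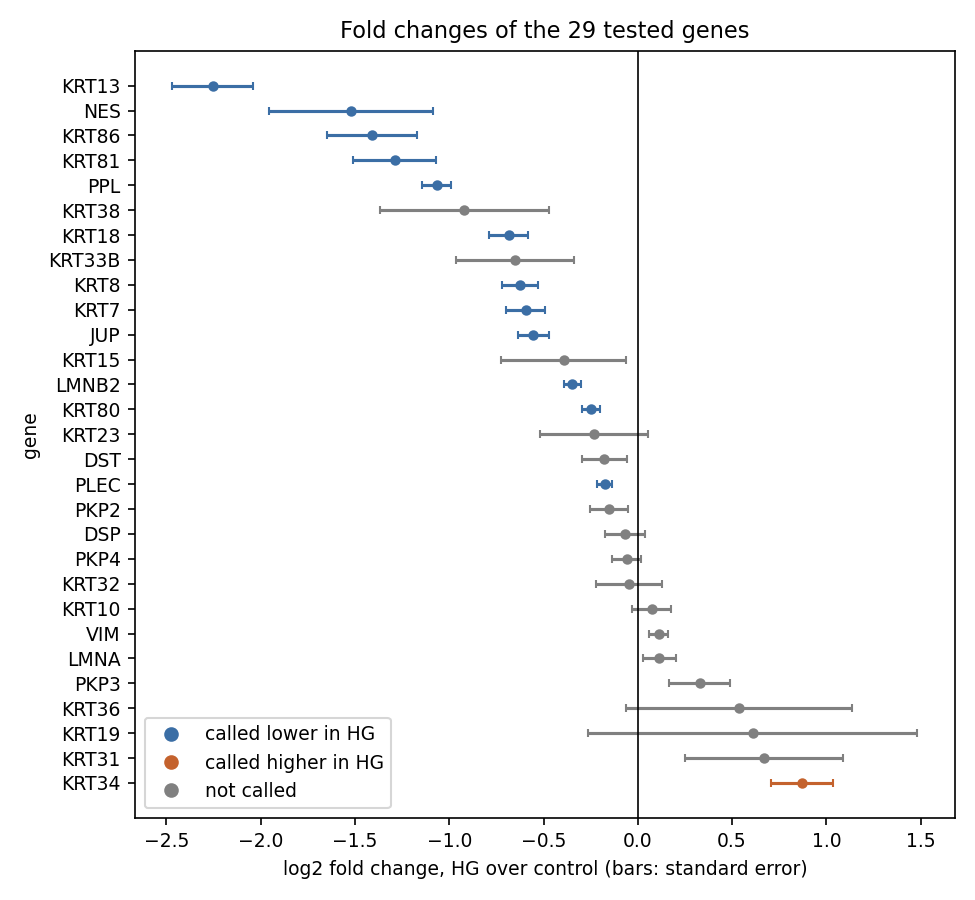
Log2 fold change of HG over control for the 29 tested genes, ordered by size, with the standard error of the fit as bars (5 libraries a group) and the call by colour. KRT13 lies lowest at -2.25 and KRT34 highest at 0.87; the plakophilins, DSP, DST, VIM and LMNA are grey, not called.

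KRT7 (chr12:52232520-52252186, plus strand, GRCh38) had 3266.2, 3635.0, 2851.4, 3013.8 and 3033.0 CPM in control 1 to 5 and 2600.0, 1906.3, 1938.1, 1805.3 and 2212.9 CPM in HG_1 to HG_5. Every HG library lay below every control library, and the fitted level fell by 33.8% (log2 fold change -0.59, SE 0.10). KRT8 (chr12:52897187-52949954, minus strand) had 1960.7, 2087.5, 1713.4, 1790.1 and 1770.1 CPM in control and 1500.5, 1149.3, 1114.5, 1051.7 and 1240.4 in HG, a log2 fold change of -0.62 (SE 0.10). KRT18, its type I partner, overlaps the start of the annotated KRT8 gene on the opposite strand (chr12:52948871-52952901, plus). It had 1184.6, 1200.4, 946.8, 967.4 and 998.8 CPM in control and 814.8, 616.3, 614.7, 586.6 and 664.8 in HG, a log2 fold change of -0.68 (SE 0.10). The 3 simple epithelial keratins thus ran in parallel over the libraries, with control 1 and 2 above the other controls and HG_1 above the other HG libraries in each. Without control 2 and HG_1 the log2 fold changes were -0.628, -0.666 and -0.722.

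KRT80, a type II keratin found in many epithelia (chr12:52168996-52192000, minus strand), had 587.3, 539.1, 502.5, 524.5 and 552.1 CPM in control and 473.2, 444.2, 452.0, 436.9 and 469.0 in HG. The groups did not overlap, and the log2 fold change of -0.25 (SE 0.05) was the smallest among the called keratins. VIM, which encodes vimentin, was at 5507.4 to 5992.9 CPM in control and 5764.0 to 6745.3 in HG, with overlapping groups, a log2 fold change of 0.11 (SE 0.05) and no call. Of 100-base windows of VIM transcripts, 29.3% also stand in other annotated transcripts, mostly the antisense gene VIM-AS1, and how the counting treated strand is not given in the sources used here.

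**Figure D4:**
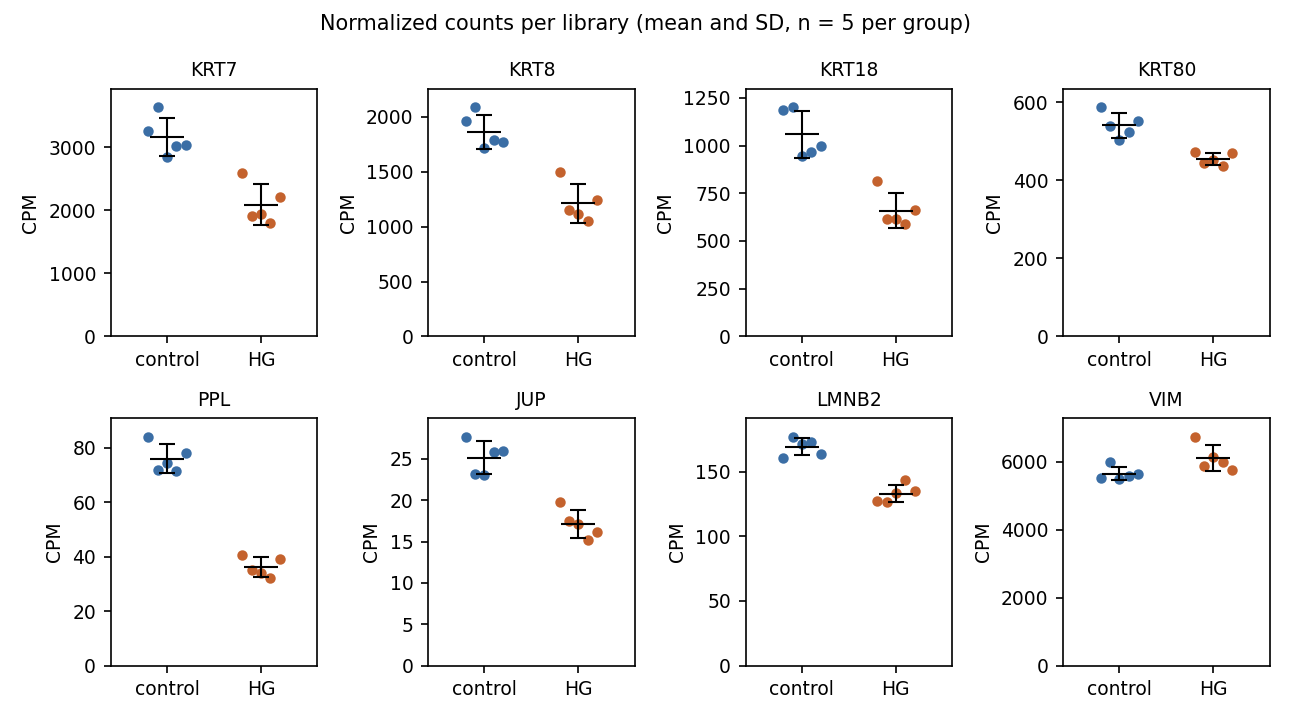
CPM (linear axes from 0) of 8 members in each library, with the mean and SD of the 5 libraries of a group in black. The groups do not overlap for KRT7, KRT8, KRT18, KRT80, PPL, JUP and LMNB2, whose HG libraries all lie below the control libraries, and they overlap for VIM.

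KRT13 (chr17:41500981-41505705, minus strand) showed the lowest log2 fold change of all tested members. It had 17.31, 11.62, 9.498, 8.685 and 10.08 CPM in control 1 to 5 and 2.936, 2.012, 2.028, 2.037 and 2.98 in HG_1 to HG_5. The groups were far apart, and the fitted level fell by 79.0% (log2 fold change -2.25, SE 0.21). The raw counts of KRT13 ran from 67 to 571. KRT4, its partner, had no counts in any library. Of the 100-base windows of KRT13 transcripts, 14.8% also stand in an annotated antisense gene. Without control 2 and HG_1 the log2 fold change was -2.33.

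KRT81 and KRT86, type II keratins of the hair cortex, are neighbours on chromosome 12 (chr12:52285913-52291534, minus strand, and chr12:52249300-52309163, plus strand) and the annotated gene spans overlap. The coding sequences are identical over a run of 605 bases, from coding base 61 to 665 in both, so that reads from this stretch cannot be assigned to 1 of them. Its first 150 bases, from the GENCODE release 29 transcripts of both genes, are shown to make this plain, in lower case throughout since no base differs.
KRT81 and KRT86: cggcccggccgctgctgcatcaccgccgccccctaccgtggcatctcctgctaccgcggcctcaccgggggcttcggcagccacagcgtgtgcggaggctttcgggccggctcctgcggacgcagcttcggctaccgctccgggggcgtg
KRT81 had 3.214, 3.095, 1.9, 2.209 and 2.628 CPM in control and 0.8573, 0.8726, 1.025, 1.52 and 1.064 in HG, a log2 fold change of -1.29 (SE 0.22). KRT86 had 3.457, 3.409, 3.174, 3.268 and 3.728 CPM in control and 1.403, 1.188, 1.471, 0.6079 and 1.733 in HG, a log2 fold change of -1.41 (SE 0.24). In both, every HG library was below every control library. Because 30.3% of the windows of KRT81 and 28.0% of those of KRT86 are shared, and the KRT86 span also overlaps the abundant KRT7 on the same strand, the split of these low counts among the genes is uncertain.

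KRT34, KRT33B and KRT31 are type I keratins of the hair cortex that lie side by side on the minus strand of chromosome 17 (chr17:41377650-41382403, chr17:41363494-41369800 and chr17:41393724-41397592). KRT34 was the only member called higher in HG, and its neighbours were not called. The 250 bases before the start of each gene are shown. The log2 fold changes of KRT34 and KRT31 were of the same sign (0.87 and 0.67) and that of KRT33B was negative (-0.65). Whether these 3 neighbours differ from each other was not tested. The starts are those of RefSeq, which lie 97 bases inside the GENCODE span given for KRT34 and 13 and 16 bases upstream of those for KRT33B and KRT31. The sequences are from RefSeq (GRCh38.p14, minus strand, written 5′ to 3′), at chr17:41382307-41382556 for KRT34, chr17:41369814-41370063 for KRT33B and chr17:41397609-41397858 for KRT31. Capitals mark the letters TATAA, the core of a TATA box.
KRT34: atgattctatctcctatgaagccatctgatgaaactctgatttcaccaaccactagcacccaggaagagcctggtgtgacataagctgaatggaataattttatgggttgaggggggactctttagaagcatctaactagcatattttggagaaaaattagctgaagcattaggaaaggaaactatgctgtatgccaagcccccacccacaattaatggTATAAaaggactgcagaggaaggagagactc
KRT33B: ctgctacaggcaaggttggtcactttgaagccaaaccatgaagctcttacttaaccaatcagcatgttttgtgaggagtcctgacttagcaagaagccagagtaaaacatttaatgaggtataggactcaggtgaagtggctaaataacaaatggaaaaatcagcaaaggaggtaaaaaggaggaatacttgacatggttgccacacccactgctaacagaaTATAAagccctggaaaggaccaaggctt
KRT31: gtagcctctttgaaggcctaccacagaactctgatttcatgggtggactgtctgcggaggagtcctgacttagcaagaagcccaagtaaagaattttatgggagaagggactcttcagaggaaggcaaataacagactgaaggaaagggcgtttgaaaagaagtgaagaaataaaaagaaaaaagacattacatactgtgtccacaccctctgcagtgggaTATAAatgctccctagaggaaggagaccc
Each window holds 1 match to TATAA, starting 31 bases before the RefSeq start in KRT34, 28 in KRT33B and 29 in KRT31. On either strand (TATAA or TTATA), 18.93% of 35116 promoters of this length hold a match. Of the 8 tested keratins found in the promoter table, 5 had a match: these 3, KRT10 and KRT38. Of the 8 other members found there 1 had a match, VIM, at 217 bases before the start. The letters GGGCGG or CCGCCC, the core of a GC box, stand in 42.64% of all promoters. They were found in 1 of these 8 keratins (KRT38) and in a window of each of the 8 other members found there: DSP, DST, JUP, LMNA, LMNB2, NES, PKP4 and VIM. The keratins had a single window each. DST, JUP, LMNA and PKP4 had several, and some windows of DST and JUP held no match. These counts by gene are thus not on the scale of the share of all promoters. TGANTCA, the letters bound by AP-1 factors, was in none of the windows of these 16 members and is in 6.573% of all promoters. The matches are descriptions of letters, and binding was not measured.

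KRT34 had 3.881, 4.732, 3.919, 3.601 and 3.706 CPM in control 1 to 5 and 9.248, 5.405, 6.553, 6.171 and 9.001 in HG_1 to HG_5. The groups did not overlap, with HG_1 and HG_5 the highest, and the fitted level rose by 83.2% (log2 fold change 0.87, SE 0.16). KRT31 had 1.789, 0.3813, 0.7454, 1.786 and 2.695 CPM in control and 2.338, 2.521, 2.273, 2.432 and 2.189 in HG. The HG libraries were close together while the controls were spread over a wide range that enclosed them, with a log2 fold change of 0.67 (SE 0.42) and no call. KRT33B had 4.639, 4.575, 4.208, 4.509 and 2.897 CPM in control and 5.325, 1.915, 1.672, 2.371 and 1.977 in HG. Here HG_1 lay above every control library and the other 4 HG libraries below every control. The log2 fold change of KRT33B was -0.65 (SE 0.31, edgeR adjusted p = 0.199, not called), and without HG_1 it was -1.07 (edgeR adjusted p = 0.00278). KRT33B and KRT34 share an identical coding run of 113 bases, and KRT33B shares 107 bases with KRT31 and 144 bases with KRT33A, which was listed at 0.

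The run shared by KRT33B (coding bases 145 to 257) and KRT34 (coding bases 271 to 383) is shown because those genes had log2 fold changes of opposite sign.
KRT33B and KRT34: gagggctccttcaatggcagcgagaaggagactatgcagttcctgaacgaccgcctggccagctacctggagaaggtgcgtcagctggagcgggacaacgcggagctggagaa
Of 100-base windows, 5.6% of those of KRT33B and 0.8% of those of KRT34 lie whole within another annotated transcript. How reads that overlap the run were assigned was not tested.

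**Figure D5:**
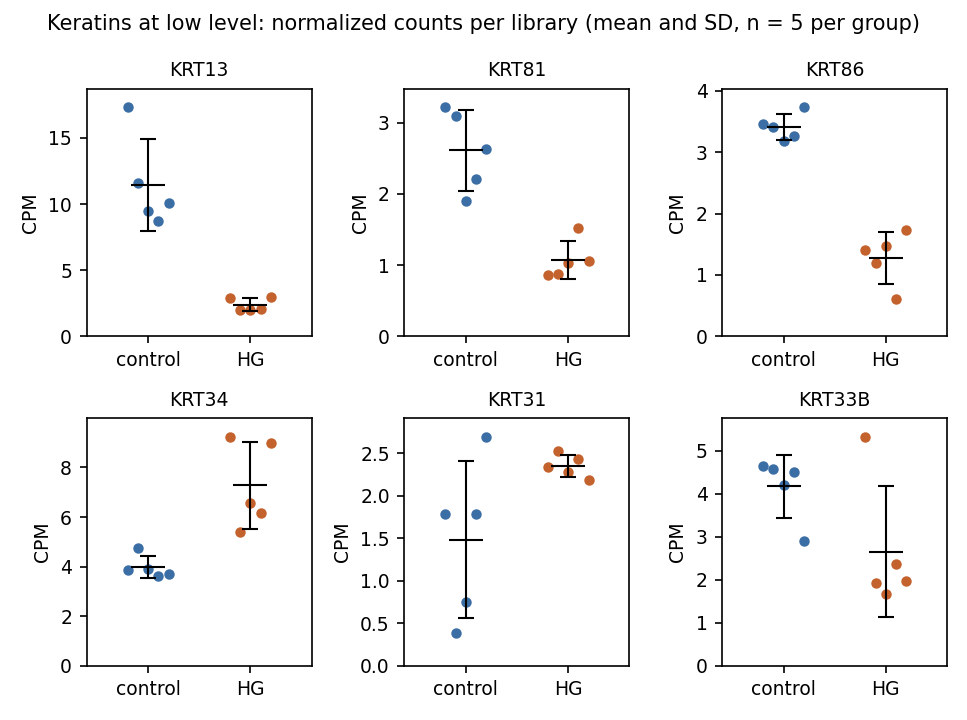
CPM (linear axes from 0) of 6 keratins at low level in each library, with the mean and SD of the 5 libraries of a group in black. KRT13, KRT81 and KRT86 are lower and KRT34 higher in every HG library; in KRT33B the library HG_1, at 5.325 CPM, lies above every control, and in KRT31 the control libraries run from 0.3813 to 2.695 CPM.

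The other tested keratins were not called. KRT10 was at 21.04 to 29.49 CPM in control and 23.14 to 30.26 in HG (log2 fold change 0.07, SE 0.10), with control 2 and HG_1 the highest of their groups. KRT32, a type I hair keratin, was at 2.837 to 3.608 and 2.463 to 4.442 CPM (log2 fold change -0.05, SE 0.18). KRT15, a keratin of basal layers and hair follicle stem cells, was at 0.4539 to 1.106 CPM in control and 0.2736 to 0.8915 in HG. KRT23 was at 0.3144 to 0.5607 and 0.2128 to 0.5126 CPM, the hair keratins KRT36 at 0 to 0.6952 and 0.4848 to 0.8573, and KRT38 at 0.2691 to 0.849 and 0.09695 to 0.3343, and KRT19 at 0 to 0.4934 and 0 to 0.6383. At such counts the log2 fold changes had wide errors. They were -0.23 (SE 0.29) for KRT23, -0.39 (SE 0.33) for KRT15, -0.92 (SE 0.45) for KRT38, 0.54 (SE 0.60) for KRT36 and 0.61 (SE 0.87) for KRT19. With such errors, the lack of a call does not show equal levels.

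Among the plakins, periplakin (PPL, chr16:4882507-4960741, minus strand), which links keratin filaments to the cell cortex and desmosomes, differed the most. It had 84.05, 71.63, 74.37, 71.24 and 78.02 CPM in control and 40.55, 34.95, 33.94, 32.34 and 39.2 in HG. Every HG library was below every control, and the fitted level fell by 52.3% (log2 fold change -1.07, SE 0.08). Desmoplakin (DSP), the main anchor of filaments in the desmosome, was at 129.2 to 178.8 CPM in control and 123.6 to 170.0 in HG (log2 fold change -0.07, SE 0.11, not called), and the lowest library of each group was control 2 and HG_1. Dystonin (DST), the plakin of hemidesmosomes and of the cytoskeleton in nerve and muscle, was at 197.5 to 288.4 and 167.7 to 246.4 CPM (log2 fold change -0.18, SE 0.12, not called), again lowest in control 2 and HG_1. PPL was thus lower in HG where the more abundant DSP was not called.

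Plectin (PLEC), which cross-links intermediate filaments with actin and microtubules, lies on chromosome 8. It was at 693.4 to 746.1 CPM in control and 625.1 to 680.4 in HG, a log2 fold change of -0.18 (SE 0.04) with no overlap of the groups, and it was called lower (edgeR adjusted p = 0.0126). Its transcripts have a GC content of 67.0%. With trends on GC and length removed from the counts, its log2 fold change was -0.03 and the call was lost (edgeR adjusted p = 0.641). Without control 2 and HG_1, the log2 fold change of PLEC was -0.20 and the call was kept (edgeR adjusted p = 0.000989). The call was lost in 5 of 22 alternatives, among them all 3 limma fits on FPKM, with a limma adjusted p of 0.181 to 0.237.

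Plakoglobin (JUP, chr17:41754604-41786931, minus strand), an armadillo protein shared by desmosomes and adherens junctions, had 27.71, 23.19, 23.04, 25.84 and 25.99 CPM in control and 19.8, 17.48, 17.12, 15.14 and 16.12 in HG. Every HG library lay below every control library (log2 fold change -0.55, SE 0.08). The plakophilins, which bind desmosomal cadherins and DSP, were not called. PKP4, found at adherens junctions and in the cytoplasm, was the highest at 26.57 FPKM over all libraries and had 126.2 to 155.0 CPM in control and 117.3 to 149.6 in HG. PKP2, the plakophilin of simple epithelia and heart, was at 17.18 FPKM, with 67.17 to 87.93 and 57.36 to 80.22 CPM. PKP3, a plakophilin of both simple and layered epithelia, was at 1.061 FPKM, with 2.092 to 3.335 CPM in control and 3.053 to 4.546 in HG. The log2 fold changes were -0.06 (SE 0.08) for PKP4, -0.15 (SE 0.10) for PKP2 and 0.33 (SE 0.16) for PKP3.

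The nuclear lamins form the filament layer under the nuclear membrane. LMNB2, a B-type lamin, had 160.7, 177.0, 171.6, 172.5 and 163.9 CPM in control and 126.9, 126.4, 133.4, 143.3 and 135.1 in HG, with no overlap and a log2 fold change of -0.35 (SE 0.05). LMNA, the A-type lamin gene, was at 565.1 to 699.9 CPM in control and 571.1 to 784.7 in HG (log2 fold change 0.11, SE 0.09, not called), and it was highest in control 2 and HG_1. Nestin (NES), a filament protein of progenitor cells, had 2 to 25 counts per library, with 0.4539 to 0.6974 CPM in control and 0.05196 to 0.3151 in HG. It was called lower (log2 fold change -1.52, SE 0.44, edgeR adjusted p = 0.0378), but 10 of 20 alternatives lost this call, with an adjusted p of up to 0.223.

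Leaving out control 2 and HG_1 gave 14 members called lower, with DST and KRT33B added, and 2 higher, with VIM added (log2 fold change 0.096, edgeR adjusted p = 0.0327). Over all rows of that fit, 13.8% were called lower and 13.3% higher. Removing GC and length trends gave 13 lower, with DST and KRT33B added and PLEC lost, and 2 higher, with LMNA added (log2 fold change 0.158, edgeR adjusted p = 0.00465), where 14.8% of all rows were called lower and 14.5% higher. In each of the alternatives that could be fitted, 11 members kept the call: KRT7, KRT8, KRT18, KRT80, KRT13, KRT81, KRT86, KRT34, PPL, JUP and LMNB2.

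The partners of these proteins were read from 8 lists of other genes, taken from the same fit, in which 7.80% of all rows were called lower and 7.62% higher. With lists this small, nothing is read from the counts of any of the 8. Among the desmosomal cadherins, which the plakophilins and JUP bind, 1 of 4 tested was called: DSC2 fell from 48.5 ± 8.137 to 26.76 ± 3.806 CPM (SD, n = 5; log2 fold change -0.86, edgeR adjusted p = 0.00151; the call was lost in the 3 limma fits on FPKM, adjusted p up to 0.165), while DSG2, the most abundant of them at 23.25 and 23.13 FPKM, had a log2 fold change of -0.02. Of 4 hemidesmosome genes 1 was called, ITGB4, the integrin chain that binds PLEC, which fell from 21.99 ± 1.002 to 9.975 ± 1.828 CPM (log2 fold change -1.14, edgeR adjusted p = 0.000171). Of 5 other plakins and armadillo genes, CTNND2 was called lower (log2 fold change -0.69, edgeR adjusted p = 0.00163). Each of these 3 lists held 1 lower call and no higher call.

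Of 4 tested cornified envelope genes, which encode the protein shell of outer skin cells, TGM1, a transglutaminase that cross-links this shell and the only one called, had a log2 fold change of -1.35 (edgeR adjusted p = 0.000772). Of 7 tested regulators of layered epithelium 2 were called lower, against 7.80% of all rows. TP63, the master factor of layered epithelia, had only 1.803 ± 0.4328 CPM in control and 0.6155 ± 0.226 in HG (log2 fold change -1.55, edgeR adjusted p = 0.00556). ELF3, an epithelial transcription factor, fell from 10.34 ± 1.349 to 3.948 ± 1.176 CPM (log2 fold change -1.39, edgeR adjusted p = 0.000702). Of 6 tested mesenchymal regulators, 2 were called lower, SNAI1 (log2 fold change -0.97, edgeR adjusted p = 0.0402) and CDH2, N-cadherin (log2 fold change -0.30, edgeR adjusted p = 0.0314). SNAI1 kept its call in 10 of 21 alternatives (adjusted p up to 0.1) and CDH2 in 9 of 22 (adjusted p up to 0.145). Of 9 nuclear envelope genes SUN2, which couples the lamina to the cytoskeleton, was called lower (log2 fold change -0.41, edgeR adjusted p = 0.00161). Of 4 tested other filament genes, SYNM, synemin, was called higher (log2 fold change 0.39, edgeR adjusted p = 0.0332), a call kept in 11 of 22 alternatives (adjusted p up to 0.137). The median log2 fold changes of the 8 lists lay between -0.23 and -0.031, against 0.0013 over all rows.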

How the data were processed

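RNA-seq libraries of 5 control and 5 HG samples of ARPE-19 were analysed from 2 tables that the authors deposited: whole-number read counts per gene and FPKM values per gene, for the same 22626 rows, of which 2163 are named MSTRG and have no Ensembl identifier. The submitters' processing notes name fastp 0.20.1, HISAT2 2.2.1 and the build GRCh38. The counting tool, its treatment of strand and of reads with several matches, and the annotation are not given in the sources used here.

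Counts were tested with the edgeR 4.0.16 quasi-likelihood test in R 4.3.3 (filterByExpr, TMM scaling, no covariate, Benjamini-Hochberg adjustment over all 14936 rows kept, threshold 0.05), with CPM on TMM-scaled library sizes. FPKM values were used for levels between genes. Alternatives were run with DESeq2 1.42.0, limma 3.58.1 (log2 FPKM with a pseudocount of 1 or 0.1) and sva 3.50.0, with other scalings and filters, and without single libraries. The members and lists were chosen with earlier results of these data known, so no set test or p over the members is given. By rule, every member called or with a mean of at least 1 FPKM was named with its values, other members with their counts, and genes of the lists where called. DSG2 was named beside them after its values were seen.

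Pairs of libraries within a group differed by a chi-square of 13.8 to 78.5 per row, so none was the same library deposited again, while repeat preparations of 1 culture cannot be told from this. In simulated counts for 14764 genes in this comparison, the test called 5 of 49 genes changed 1.25-fold, 28 of 50 changed 1.5-fold, 37 of 50 changed 2-fold and 45 of 49 changed 4-fold, with 7 false calls. The simulated libraries held no GC trend, unlike control 2 and HG_1, so these counts need not hold for the real libraries. Gene positions and shared 100-base windows are from GENCODE release 29, and promoters from RefSeq. Limits from counts of 0 cover counting error only.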

Additional observations from a re-analysis of the deposited data

Results flagged for a closer look

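Of 58 groups of 5 libraries (29 members in 2 groups), 11 held a library far from the others by Dixon's test, against 2.9 that chance alone gives at 1 in 20. Among the controls, control 2 was low for DSP (129.2 CPM, the others 168.6 to 178.8) and PKP4 (126.2 CPM, the others 148.1 to 155.0), and high for LMNA (699.9 CPM, the others 565.1 to 591.0) and KRT34 (4.732 CPM, the others 3.601 to 3.919). HG_1 was low for DST (167.7 CPM, the others 226.3 to 246.4) and high for KRT10 (30.26 CPM, the others 23.14 to 25.14), PLEC (680.4 CPM, the others 625.1 to 628.7) and KRT33B (5.325 CPM, the others 1.672 to 2.371). These are the libraries whose counts rose with GC content, by 0.17 and 0.188 log2 units per 10 points, and the part of GC content in these values was not tested. KRT33B was also low in control 5 (2.897 CPM, the others 4.208 to 4.639). KRT38 was high in control 1 (0.849 CPM, the others 0.2691 to 0.4267), and KRT23 was low in HG_4 (0.2128 CPM, the others 0.4257 to 0.5126).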

How the results depend on the processing

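Over 22 alternatives, 11 of the 13 called members kept their call in all that could be fitted, and PLEC and NES did not. Members called higher were 2 in place of 1 with library size alone, without control 2 and HG_1 together, and with GC and length trends removed. Calls over all rows were 2303, against 4035 without both libraries, 3968 with GC and length trends removed and 1648 to 2993 with single libraries left out. The 10 calls in the 8 lists became 18, 17 and 7 to 13 under the same settings, and 5 with limma on log2(FPKM + 1) of rows with a mean of at least 1 FPKM. Raising the limit for an expressed keratin from 1 to 5 FPKM left 5 of 11. The ratio of type II to type I keratins was 5.032 in control and 5.335 in HG from CPM. With single libraries left out, log2 fold changes turned sign for DSP (-0.1389 to 0.0103, positive without HG_1), PKP4 (-0.1042 to 0.0038, positive without HG_1) and KRT32 (-0.2035 to 0.0276, positive without HG_4 or HG_5), and none of these was called. KRT33B was called with HG_1 left out (-1.0664), with control 2 and HG_1 left out (-1.0329) and with the trends removed (-0.7267). The cause was not tested. Column numbers do not pair the libraries (correlations of deviations between -0.066 and 0.039 for equal numbers, and 0.188 for control 2 with HG_1). With a replicate block by number, 1071 rows and 11 members were called, PLEC and NES no longer.

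Genes under about 1 CPM (KRT15, KRT19, KRT23, KRT36, KRT38 and NES) have wide errors, and the filter of at least 10 counts in every library gave no value for any of these 6. Read sharing among KRT81, KRT86 and KRT7, KRT8 and KRT18, and VIM and its antisense gene could not be resolved from the tables.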
